A study of Mus musculus with 12 samples.

Results

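The receptors for steroid hormones that are followed here are the glucocorticoid receptor *Nr3c1*, the mineralocorticoid receptor *Nr3c2*, the progesterone receptor *Pgr* and the estrogen receptors *Esr1* and *Esr2*, together with the receptor co-chaperone *Fkbp5*. The 6 genes were picked by symbol, and all 6 were found among the 37991 genes of the deposited files. Poly(A) RNA-seq had been carried out on the hippocampi of 12 C57BL/6N mice aged 6 to 7 months, 6 labelled *Gadd45a*-WT (wild type) and 6 labelled *Gadd45a*-KO (*Gadd45a*-/-). The mice were siblings from crosses of heterozygotes, male according to the methods of the study, and all 12 were killed 1 h after the passive avoidance (PA) test, in which a mouse learns to avoid a compartment where it received a foot shock. There was no untrained group, so the comparison is between genotypes in trained animals. The knockout is constitutive, and the first 3 exons of *Gadd45a* were replaced by a neomycin cassette in every cell, with exon 4 left in place.

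Steroid receptors are transcription factors that are switched on by their ligand. Without hormone they are held by Hsp90 and its partners. On binding hormone they move to DNA, where glucocorticoid, mineralocorticoid and progesterone receptors share 1 type of binding site and estrogen receptors use another, and there they recruit coactivators or corepressors. In the hippocampus, a brain region rich in receptors for corticosterone, the mineralocorticoid receptor binds the hormone at its resting level and the glucocorticoid receptor is occupied when the level rises in stress. *Fkbp5* encodes a co-chaperone that lowers the affinity of the glucocorticoid receptor for hormone and is itself a target gene of that receptor.

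The classical site for glucocorticoid, mineralocorticoid and progesterone receptors is made of the half-sites AGAACA and TGTTCT with 3 free bases between them. It was searched for as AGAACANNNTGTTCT, which reads the same on both strands, in the gene bodies of 5 of the 6 genes. *Fkbp5* holds 2 such matches, both in introns, 97189 and 75091 nt downstream of the gene's start, and the other 4 gene bodies searched (*Nr3c2*, *Pgr*, *Esr1* and *Esr2*) hold none, which says only that these letters are not in those windows. *Nr3c1* was not searched. The matches in *Fkbp5* are shown because this gene is a textbook target of the receptor, on the plus strand of NCBIM37, opposite to the direction of transcription, with the match in capitals and 6 flanking bases on each side.
*Fkbp5* intron, chr17:28557266-28557280: gagcacAGAACACCCTGTTCTgaatgt
*Fkbp5* intron, chr17:28579364-28579378: aagcctAGAACAAGCTGTTCTcaaaca
Of 779 windows of the length of *Fkbp5* on chromosome 17, 3.08% held the site at least once. The site also stands in the promoter of *Sgk1*, a kinase gene and another textbook target of corticosteroid receptors, 189 nt before the start site (RefSeq promoter sequences, GRCm38.p6, plus strand, which is the strand of the gene).
*Sgk1* promoter, chr10:21993701-21993715: gcggaaAGAACAGAATGTTCTcggaga
Among 21 glucocorticoid-responsive genes with a RefSeq promoter, *Sgk1* was the 1 that held the site there (4.76%). Of 27025 RefSeq promoters, each 250 bases before to 50 bases after a start site, 3 (0.0111%) held it, and none belonged to the 5 of the 6 genes that have an entry in that set. The estrogen receptor site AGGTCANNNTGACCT was found in none of those 5 promoters, in 4 of all promoters (0.0148%) and in none of the 5 gene bodies. These are matches of letters and not measured binding.

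Between 44594261 and 55540601 reads per library fell on genes. Reads on *Gadd45a*, the targeted gene, were more numerous where its label says knockout. It had 2.19 to 3.43 CPM (reads per 1000000 reads of a library, after TMM scaling) under the label *Gadd45a*-WT against 20.5 to 23.1 CPM under *Gadd45a*-KO, and its log2 fold change of 3.06 had a standard error of 0.09 and an adjusted p of 1.33e-10 in edgeR's quasi-likelihood test. Counts per gene do not separate exon 4, which remains in the knockout. *E230016M11Rik*, a non-coding gene on the other strand whose exon 1 overlaps exon 3 of *Gadd45a*, had 3.27 to 3.87 CPM against 0.0760 to 0.27 CPM. Directions below are therefore given by label. In 2 libraries, *Gadd45a*-KO replicates 2 and 3, the sum of 8 thalamic markers was 310 and 490 CPM, against 89.2 to 135 CPM in the other 10, and the sum of 5 oligodendrocyte markers was 6124 CPM in replicate 3 against 1985 to 3114 CPM elsewhere. The neuronal markers of the hippocampus were read in every library, with granule cell sums of 387 to 558 CPM (WT) and 255 to 545 CPM (KO). The CA1 sums, for which 4 of 5 markers were matched, were 465 to 638 CPM (WT) and 343 to 707 CPM (KO). Reads without a gene made up 14.4% to 15.8% (WT) and 13% to 14.3% (KO) of each library, without overlap (exact permutation test, two-sided, p = 0.00216, which is the lowest that 6 against 6 can give). The part of these differences in the results below was not tested, and each result is also given without the 2 libraries rich in thalamic markers where that changes it.

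Both corticosteroid receptors and *Fkbp5* were abundant, and the receptors for sex steroids were not. Per exonic length, *Nr3c2* had the highest level, with a median over the 12 libraries of 45.8 CPM per kb and a range of 39 to 51 CPM per kb. *Fkbp5* followed with a median of 12.2 CPM per kb (10.7 to 13.3) and *Nr3c1* with 11.7 CPM per kb (11.2 to 15.2), and these ranges overlap. *Pgr* had a median of 0.92 CPM per kb (0.696 to 1.19), *Esr1* of 0.164 CPM per kb (0.138 to 0.217) and *Esr2* of 0.0227 CPM per kb (0.00582 to 0.0415). Apart from *Fkbp5* and *Nr3c1*, no neighbours in this order overlapped in any library. The order was the same under both labels for *Nr3c2*, *Pgr*, *Esr1* and *Esr2*, while the mean of *Nr3c1* was 13.1 ± 1.34 CPM per kb against 11.7 ± 0.823 for *Fkbp5* in libraries labelled *Gadd45a*-WT and 11.3 ± 0.15 against 12.4 ± 0.564 in those labelled *Gadd45a*-KO (mean ± SD, n = 6).

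**Figure D1:**
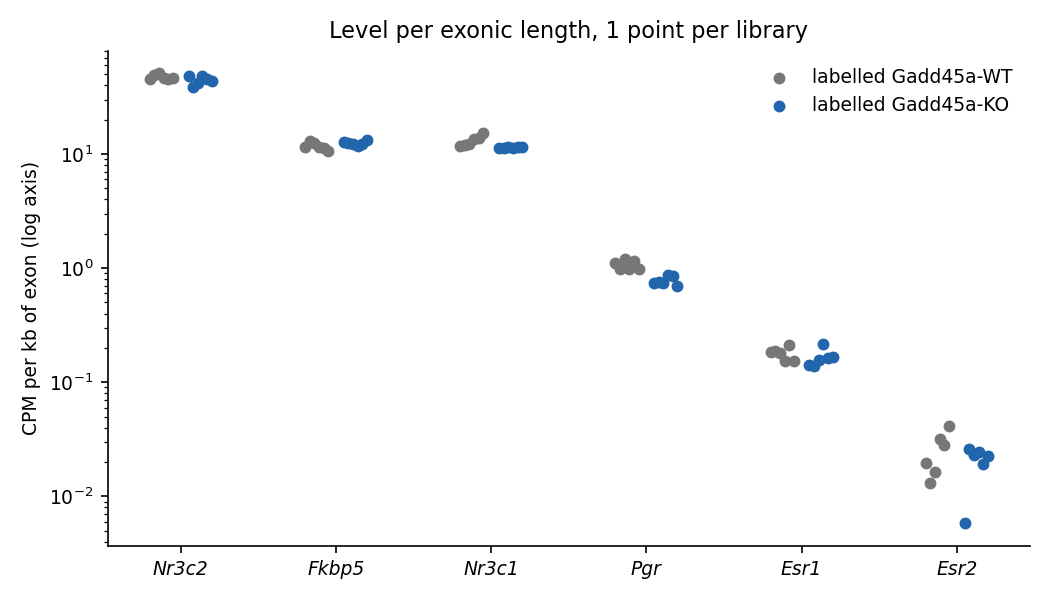
CPM per kb of annotated exon for the 6 genes (log axis), 1 point per library, grey for libraries labelled Gadd45a-WT and blue for those labelled Gadd45a-KO. Nr3c2 stands at 39 to 51, Fkbp5 and Nr3c1 share the range around 12, and Pgr, Esr1 and Esr2 follow in separate bands down to a lowest value of 0.00582.

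Of the 6 genes, 5 passed the expression filter, and the question was whether their poly(A) RNA differed between the labels. At 1% FDR, 1 of the 5 was lower in libraries labelled *Gadd45a*-KO and 0 were higher, beside 2.62% (lower), 0.0244% (higher) and 2.65% (either direction) of all 16399 tested genes. The gene was *Pgr*. At an unadjusted p under 0.05, 2 of the 5 were lower and 0 higher, beside 9.35% and 4.34% of tested genes. *Nr3c1* had the next lowest p, with an adjusted p past 5% FDR and not past 1%. For *Nr3c2*, *Esr1* and *Fkbp5* the 95% intervals of the fold change included 0. In *Pgr* and *Nr3c1*, all 6 libraries labelled *Gadd45a*-KO lay below all 6 labelled *Gadd45a*-WT, as did 3.12% of tested genes.

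**Figure D2:**
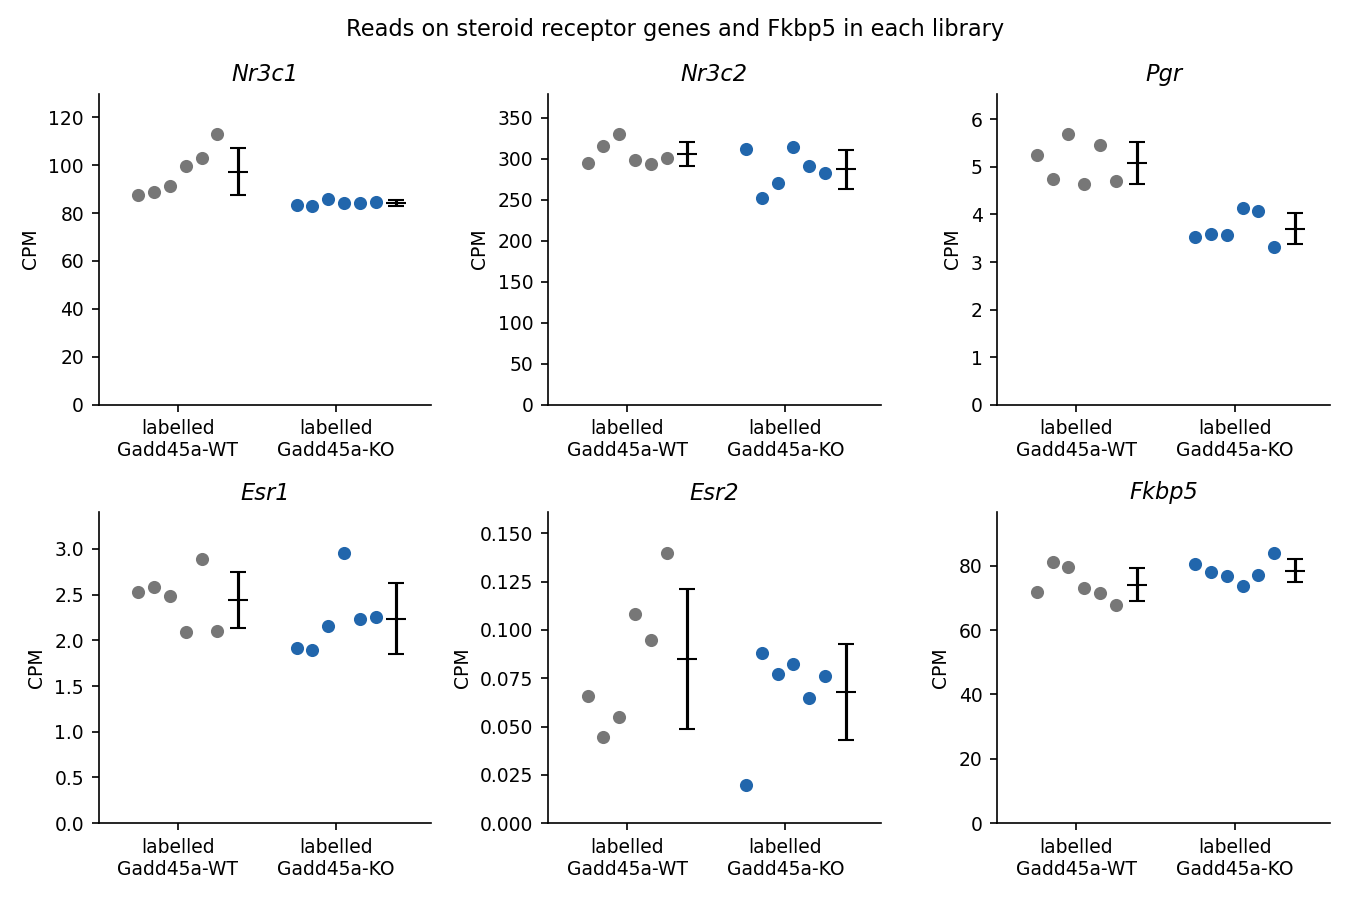
CPM of the 6 genes in each library, with mean and SD (n = 6) beside the points. The labels do not overlap for Pgr (3.32 to 4.13 against 4.65 to 5.69 CPM) and Nr3c1 (82.8 to 85.9 against 87.7 to 113 CPM), and overlap for the other 4 genes.

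*Pgr* (ENSMUSG00000031870, NCBIM37 chr9:8900419-8965425, plus strand), the receptor through which progesterone acts on transcription, was the gene that fell. Libraries labelled *Gadd45a*-WT had a lowest value of 4.65 CPM, a median of 5 and a highest value of 5.69, and those labelled *Gadd45a*-KO had 3.32, 3.57 and 4.13 CPM. The labels did not overlap, with a gap between 4.13 and 4.65 CPM. The means were 5.09 ± 0.446 and 3.7 ± 0.325 CPM (SD, n = 6), from 213 to 310 and from 163 to 201 reads per library. The log2 fold change was -0.46 (standard error 0.08, 95% interval -0.63 to -0.29, adjusted p = 0.00265, edgeR), a level 1.38-fold lower. *Pgr* has no annotated neighbour that overlaps it on either strand. With 1 library left out the fold change ran from -0.49 to -0.42. The call was lost without *Gadd45a*-WT replicate 5 (-0.43, adjusted p = 0.011, edgeR), *Gadd45a*-KO replicate 1 (-0.44, 0.0109) or *Gadd45a*-KO replicate 6 (-0.42, 0.0101), and also without *Gadd45a*-KO replicates 2 and 3 together (-0.44, adjusted p = 0.0214, edgeR). In bulk tissue, fewer cells that express a gene and less RNA per cell cannot be told apart. Counts per gene also do not show where along a transcript reads differ. For *Grin2a*, the paper reports lower coverage of the exons in the knockout and similar coverage at the far end of the 3'UTR. For *Pgr* this was not tested. *Pgr* is also expressed outside the hippocampus, in the cortex, hypothalamus and amygdala. The 9 markers of hypothalamus and amygdala summed to 13 to 17.5 CPM (WT) and 12.4 to 17.8 CPM (KO), with *Lhx8* at 0 reads in every library and 3 of the 9 past the expression filter. Most of this sum was *Rspo2*, named after its value was seen, with 11.8 to 16 CPM (WT) and 11.1 to 16.5 CPM (KO). The sum therefore says little about the rest of that list. The cortical and subicular markers, of which 5 of 6 were matched, summed to 71.2 to 106 and 88.4 to 126 CPM. None of the tested genes of either list passed 1% FDR in this fit. The cortical marker *Rorb* came closest and was higher under the label *Gadd45a*-KO (0.33, adjusted p = 0.011, edgeR). Of 21 alternative settings, 14 left *Rorb* uncalled and 7 did not, with 5% FDR among the 7.

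*Nr3c1* (ENSMUSG00000024431, chr18:39570199-39650955, minus strand), the receptor that is occupied at stress levels of corticosterone, showed a smaller difference and an unequal spread. Libraries labelled *Gadd45a*-WT ran from 87.7 CPM over a median of 95.5 to 113 CPM, and those labelled *Gadd45a*-KO from 82.8 over 84.3 to 85.9 CPM. The labels did not overlap, but the highest library labelled *Gadd45a*-KO and the lowest labelled *Gadd45a*-WT were 85.9 and 87.7 CPM. The means were 97.3 ± 9.91 and 84.2 ± 1.12 CPM (SD, n = 6), which is a coefficient of variation of 10.2% against 1.33%. Under the label *Gadd45a*-WT the values rose with the replicate number, with 87.7, 88.7 and 91.5 CPM in replicates 1 to 3. Replicates 4 to 6 had 99.5, 103 and 113 CPM. Neither this order nor the difference in spread was tested. Counting error is small here, with 3769 to 5667 reads per library. The log2 fold change was -0.21 (standard error 0.05, 95% interval -0.33 to -0.09, adjusted p = 0.0443, edgeR), not past 1% FDR but past 5%, which 4.43% of tested genes passed in this direction. With any 1 library left out, the adjusted p of edgeR ran from 0.0233 to 0.149 and the fold change from -0.23 to -0.15, and it stayed under 0.05 only without *Gadd45a*-WT replicate 1 or 2. With an offset for exonic length it was -0.16 (adjusted p = 0.124, edgeR), and without *Gadd45a*-KO replicates 2 and 3 it was -0.21 (adjusted p = 0.146, edgeR).

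*Nr3c2* (ENSMUSG00000031618, chr8:79423341-79768911, plus strand), the high-affinity receptor for corticosterone in the hippocampus, did not pass the test. Libraries labelled *Gadd45a*-WT had 293 to 330 CPM with a median of 300, and those labelled *Gadd45a*-KO had 252 to 314 CPM with a median of 287. The ranges overlapped between 293 and 314 CPM, and the lowest values, 252 and 270 CPM, were those of *Gadd45a*-KO replicates 2 and 3, the libraries rich in thalamic markers. The log2 fold change was -0.09 (standard error 0.05, 95% interval -0.21 to 0.02, adjusted p = 0.514, edgeR) over all libraries and -0.03 (95% interval -0.13 to 0.07) without those 2. A gene overlaps *Nr3c2* on the same strand, and reads in a region shared by genes are left out of the counts. Each library held 2.66 to 3.61 reads on *Nr3c2* for each read on *Nr3c1* under the label *Gadd45a*-WT and 3.05 to 3.75 under *Gadd45a*-KO. The means of the log2 ratio were 1.66 (SD 0.18) and 1.76 (SD 0.12), a difference of 0.11 (two-sided exact permutation test, p = 0.258, 924 relabellings). The balance of both receptors thus differed by less than the spread between replicates.

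**Figure D3:**
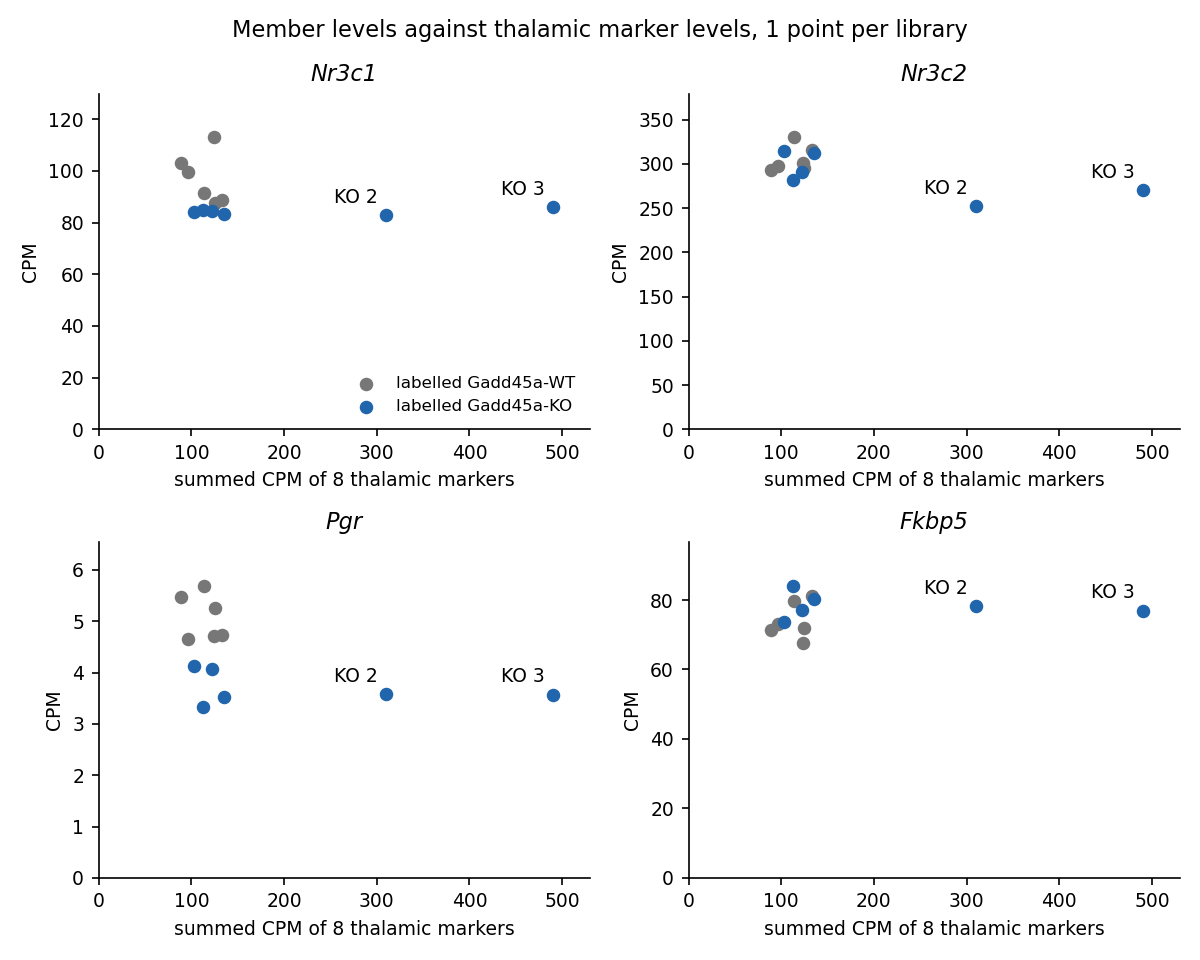
CPM of 4 genes against the summed CPM of 8 thalamic markers, 1 point per library. Gadd45a-KO replicates 2 and 3 stand apart at 310 and 490 on the horizontal axis. Nr3c2 is lowest in them (252 and 270 CPM), their Pgr and Fkbp5 levels lie within the range of the other libraries labelled Gadd45a-KO, and their Nr3c1 levels (82.8 and 85.9 CPM) are the lowest and highest of that label.

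The estrogen receptors were low. *Esr1* (ENSMUSG00000019768, chr10:5340927-5734948, minus strand), which encodes estrogen receptor alpha, had 2.09 to 2.89 CPM (median 2.5) under the label *Gadd45a*-WT and 1.89 to 2.96 CPM (median 2.19) under *Gadd45a*-KO. The highest of all 12 libraries, *Gadd45a*-KO replicate 4 at 2.96 CPM, stood above the other 5 with its label, which had 1.89 to 2.26 CPM. The log2 fold change was -0.13 (standard error 0.12, 95% interval -0.38 to 0.13, adjusted p = 0.745, edgeR), and 86 to 152 reads per library limit its precision. It was -0.22 (95% interval -0.44 to 0.01) without *Gadd45a*-KO replicate 4, -0.06 without *Gadd45a*-WT replicate 5, -0.08 without *Gadd45a*-KO replicate 1, -0.07 without *Gadd45a*-KO replicate 2, -0.06 without *Gadd45a*-KO replicates 2 and 3 together and -0.01 with the length offset, and it passed the test in none of these fits. *Esr2* (ENSMUSG00000021055, chr12:77221406-77278246, minus strand), which encodes estrogen receptor beta, had 2 to 7 reads per library under the label *Gadd45a*-WT and 1 to 4 under *Gadd45a*-KO, 26 and 20 in all. That is 0.0445 to 0.14 CPM and 0.0196 to 0.0879 CPM, where 1 read is worth 0.018 to 0.0222 CPM, and the labels overlapped. *Esr2* did not pass the expression filter, so no adjusted p belongs to it in the main fit. The difference of its mean log2 CPM was -0.20 (two-sided exact permutation test, p = 0.431), and a difference was not detectable at this depth. *Gm7862* overlaps *Esr2* on the same strand.

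*Fkbp5* (ENSMUSG00000024222, chr17:28536040-28654469, minus strand), the co-chaperone and target gene of the glucocorticoid receptor, had 67.7 to 81.3 CPM (median 72.5) under the label *Gadd45a*-WT. Under the label *Gadd45a*-KO it had 73.6 to 84.1 CPM (median 77.7). The ranges overlapped, and the log2 fold change was 0.08 (standard error 0.05, 95% interval -0.02 to 0.18, adjusted p = 0.511, edgeR). With 1 library left out it ran from 0.06 to 0.12 and the adjusted p of edgeR from 0.281 to 0.662. The interval lay above 0 without *Gadd45a*-WT replicate 2 (0.02 to 0.21), *Gadd45a*-WT replicate 3 (0.01 to 0.21) or *Gadd45a*-KO replicate 4 (0.0036 to 0.21). Across the 12 libraries, as deviations from the mean of their label, *Fkbp5* and *Nr3c1* correlated with r = -0.631 (Spearman's rho -0.524) and *Pgr* and *Esr1* with r = 0.636 (rho 0.406), and the other 8 pairs had r from -0.22 to 0.371. The deviations of *Nr3c1* were small under the label *Gadd45a*-KO (SD 1.12 CPM, against 9.91 under *Gadd45a*-WT). Its values of r therefore rest mainly on the libraries labelled *Gadd45a*-WT. All these correlations are descriptions over libraries that share depth and dissection, and no p is given.

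**Figure D4:**
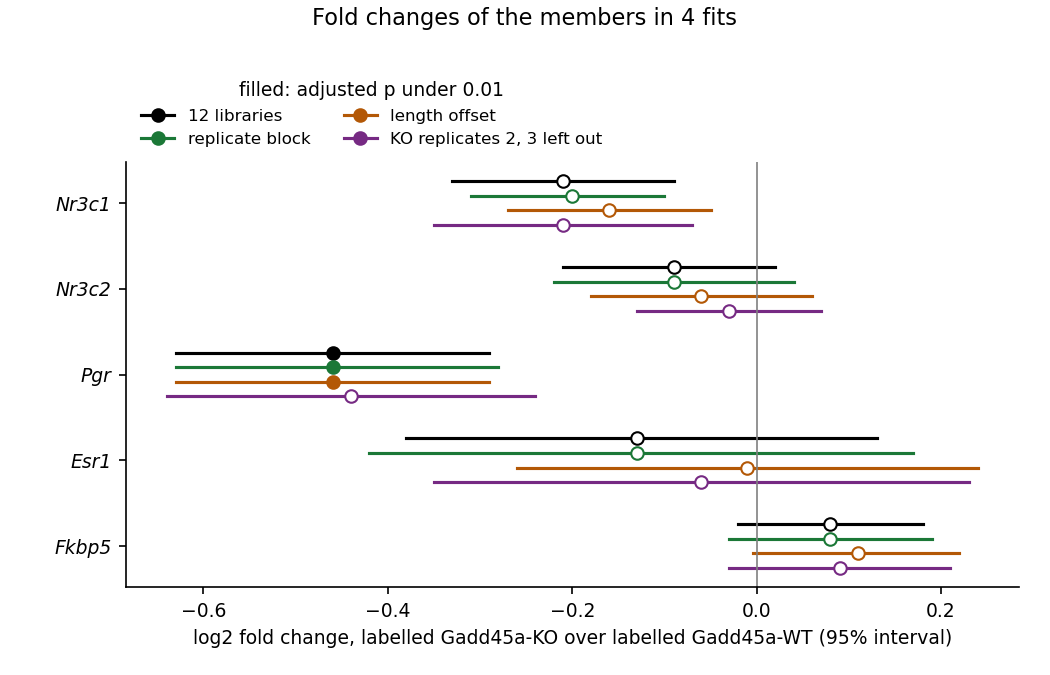
Log2 fold changes with 95% intervals for the 5 tested genes in 4 edgeR fits (all 12 libraries, the replicate number as a block, an offset for exonic length, and Gadd45a-KO replicates 2 and 3 left out). Filled points, adjusted p under 0.01, occur for Pgr in the first 3 fits, and Pgr and Nr3c1 stay below 0 in all 4.

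Genes that work with these receptors were read next, in lists fixed by function. The 19 chaperones and co-chaperones of the receptor complex had a median log2 fold change of 0.02, with a range of -0.03 to 0.09, beside 0.0033 over all tested genes, and 0 of the 19 passed 1% FDR in edgeR (1 had an unadjusted p under 0.05, and 0 passed in DESeq2). *Hsp90ab1*, the constitutive form of the chaperone that holds the unliganded receptor, had 1492 to 1714 CPM (median 1601) against 1612 to 1732 CPM (median 1674), a log2 fold change of 0.05 (adjusted p = 0.641, edgeR). *Hsp90aa1*, the inducible form, had a log2 fold change of 0.09 (0.442), *Ptges3*, which encodes the co-chaperone p23, 0.08 (0.31) and *Hsph1*, a heat shock protein of high mass, 0.03 (0.842), with adjusted p of edgeR in brackets. The ranges of the labels overlapped for each of these 4 genes.

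Of the 20 coregulators, 1 passed 1% FDR and was lower, beside 2.62% of all tested genes. *Ncoa2*, the coactivator also known as GRIP1 or TIF2 that binds the glucocorticoid receptor, had 110 to 122 CPM (median 119) under the label *Gadd45a*-WT and 93.8 to 105 CPM (median 101) under *Gadd45a*-KO. The labels did not overlap, and the log2 fold change of -0.23 (standard error 0.04) had an adjusted p of 0.00136 (edgeR). The call was lost with the length offset (-0.10, adjusted p = 0.0494, edgeR) and without *Gadd45a*-KO replicates 2 and 3 (-0.22, 0.0128). In the list as a whole 17 fold changes were below 0 and 3 above, beside 7905 below and 8494 above over all tested genes, with a median of -0.06 (-0.03 with the length offset) and a range of -0.31 to 0.05. At an unadjusted p under 0.05, 7 of the 20 were lower and 0 higher, beside 9.35% and 4.34% of all tested genes. At 5% FDR 4 were lower, beside 4.43% of all tested genes. They were *Ncoa2*, the corepressor *Nrip1* (-0.31, adjusted p = 0.0411, edgeR), named after its value was seen, the histone methyltransferase *Nsd1* (-0.22, 0.0147) and the acetyltransferase *Ep300* (-0.16, 0.0327). Median levels were 215 against 180 CPM for *Nsd1*, 99.4 against 88.8 CPM for *Ep300* and 60.6 against 48.5 CPM for *Nrip1*, with overlap between the labels for each of the 3. In fits with 1 library left out, the adjusted p of edgeR ran from 0.00333 to 0.0604 for *Nsd1* and from 0.0179 to 0.126 for *Ep300*. Their calls at 5% FDR thus depended on single libraries.

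Genes that respond to corticosteroids or to sex steroids did not pass the test. Of 23 glucocorticoid-responsive genes 22 were tested, 0 passed 1% FDR in edgeR or DESeq2 (1 had an unadjusted p under 0.05, lower), and the median log2 fold change was 0.01 (range -0.16 to 0.28). *Sgk1*, whose promoter site is printed above, had 58.7 to 92 CPM (median 70.2) against 61.4 to 80.8 CPM (median 66.8), a log2 fold change of -0.08 (adjusted p = 0.836, edgeR). *Tsc22d3*, which encodes the glucocorticoid-induced leucine zipper, had medians of 50.8 and 49 CPM (0.03, adjusted p = 0.943, edgeR), and the clock gene *Per1* had 80.9 and 73.4 CPM (-0.16, 0.297). *Ddit4*, an inhibitor of mTOR signalling, had a log2 fold change of -0.13 (0.38), *Gpd1*, a glycerol phosphate dehydrogenase, -0.06 (0.579), *Klf9*, a transcription factor, -0.05 (0.723), *Rhob*, a small GTPase, 0.03 (0.905) and *Fam107a* 0.01 (0.97). Over the 12 libraries, the deviations of *Fkbp5* correlated with those of the 22 genes with a median r of 0.279 (range -0.524 to 0.672). For 4 of the 22 r was over 0.5. It was 0.583 with *Sgk1*, 0.197 with *Tsc22d3* and 0.0642 with *Per1*. The median r over all tested genes was not taken, so these values are descriptions. Of the 16 genes responsive to estrogen or progesterone 12 were tested and 0 passed 1% FDR in edgeR or DESeq2 (2 had an unadjusted p under 0.05, 1 in each direction), with a median of 0.04. The growth factor receptor *Igf1r* had -0.24 (adjusted p = 0.203, edgeR), the binding protein *Igfbp2* 0.28 (0.153) and *Ihh*, a hedgehog ligand that progesterone induces in the uterus, -0.48 (0.417) at 0.0866 to 0.419 CPM.

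**Figure D5:**
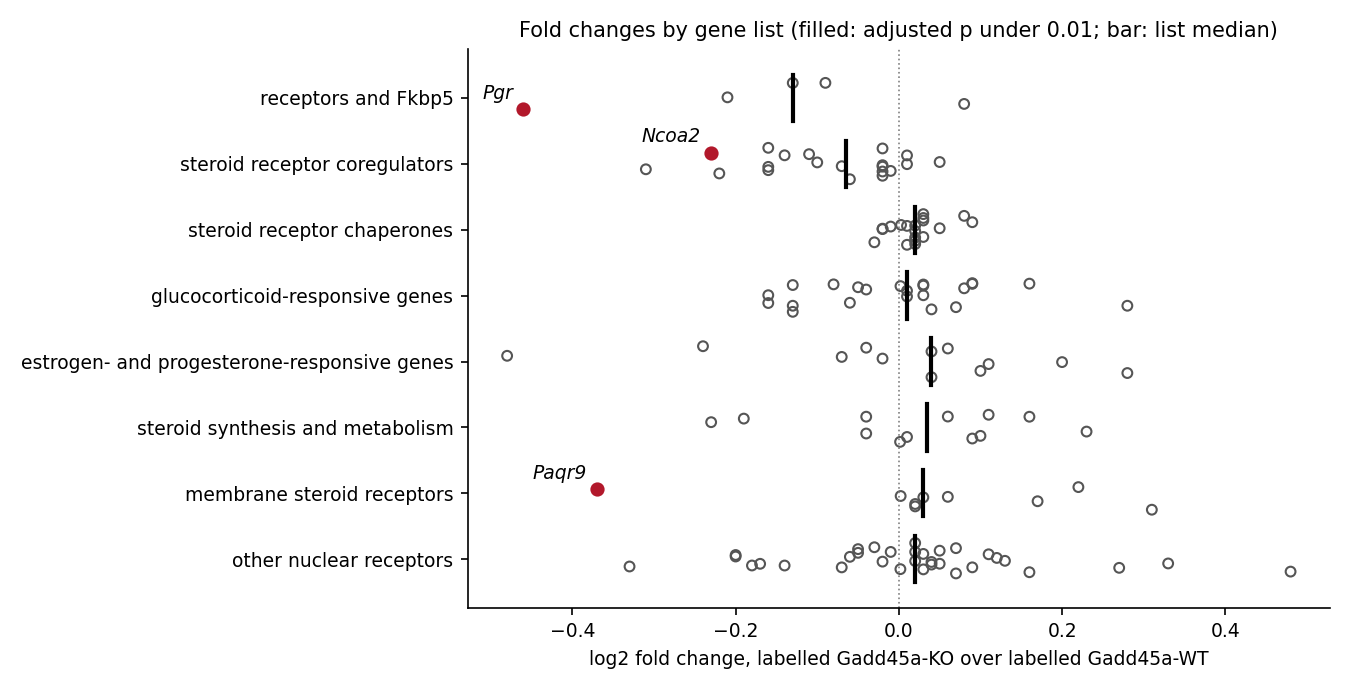
Log2 fold changes (libraries labelled Gadd45a-KO over those labelled Gadd45a-WT) of the tested genes of each list, with the list median as a bar and filled points for adjusted p under 0.01. Pgr, Ncoa2 and Paqr9 are the filled points, all below 0, and the medians of the lists other than the receptors and coregulators lie between 0.01 and 0.04.

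Genes that make or convert steroids did not pass the test. Of 24 matched genes 12 were tested, 0 passed 1% FDR in edgeR (0 had an unadjusted p under 0.05) and 0 in DESeq2, and the median log2 fold change was 0.04. *Hsd11b1*, which regenerates active corticosterone inside cells, had 33.1 to 43.1 CPM (median 34.9) against 33.2 to 38.9 CPM (median 36.8), a log2 fold change of 0.01 (adjusted p = 0.956, edgeR). The steroid reductases *Srd5a1* and *Srd5a3* had 0.16 (adjusted p = 0.398, edgeR) and 0.09 (0.433), and *Hsd17b4*, a peroxisomal dehydrogenase, 0.06 (0.388).

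Of the 9 membrane receptors and binding proteins for steroids, all were tested and 1 passed 1% FDR. *Paqr9*, a member of the family of membrane progesterone receptors, had 23 to 25.8 CPM (median 24.5) under the label *Gadd45a*-WT and 17.3 to 21 CPM (median 18.4) under *Gadd45a*-KO. Again the labels did not overlap, and the log2 fold change of -0.37 (standard error 0.05) had an adjusted p of 0.000497 (edgeR). The other 8 did not pass and had fold changes above 0 in this fit, of which that of *Paqr7* was 0.0022. *Paqr5* and *Paqr6* of the same family had 0.31 (adjusted p = 0.178, edgeR) and 0.17 (0.236), and the list's median was 0.03. At an unadjusted p under 0.05, 3 of the 9 were higher, *Paqr5*, *Paqr6* and the estrogen-binding receptor *Gper1* (0.22, adjusted p = 0.28, edgeR), beside 4.34% of all tested genes, and 1 was lower. *Paqr7* and *Gper1* are named after their values were seen. Of 39 other nuclear receptors 33 were tested and 0 passed 1% FDR in edgeR (4 had an unadjusted p under 0.05, 3 of them lower), against 2 in DESeq2. The 3 with the lowest p were *Rorb*, an orphan receptor of cortical and sensory neurons (median 21.8 against 27.5 CPM, 0.33, adjusted p = 0.011, edgeR), the testicular receptor *Nr2c2* (169 against 148 CPM, -0.17, 0.0134) and the thyroid hormone receptor *Thrb* (41.8 against 36.4 CPM, -0.20, 0.143). *Rorb* is also on the list of cortical and subicular markers given above. Both *Rorb* and *Nr2c2* had adjusted p values under 0.01 when 1 library was left out, *Rorb* without *Gadd45a*-KO replicate 1 (0.0027, edgeR) and *Nr2c2* without *Gadd45a*-WT replicate 1 (0.00646, edgeR).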

How the data were processed

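RNA-seq counts of 12 mouse hippocampi were used, 6 per label, grouped by the genotype in the sample labels. The authors prepared stranded poly(A) libraries, aligned the reads with TopHat 1.4.1 to NCBIM37/mm9, counted them per Ensembl gene with htseq-count (HTSeq 0.5.4p3) by strand, and deposited these counts without normalization or pooling. Reads without a gene and ambiguous reads, which carry no gene, were left out of library sizes, at 13% to 15.8% and 0.626% to 0.694% of counted reads.

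Genes were named from GENCODE vM1 of the same build, an earlier release than the authors' (37205 of 37991 IDs matched). Counts were filtered and TMM-normalised with edgeR 4.0.16 (R 4.3.3), and the 16399 genes left were fitted together with the quasi-likelihood test without covariates, with Benjamini-Hochberg adjustment over all of them and the study's threshold of 1% FDR. Standard errors were obtained by dividing each log2 fold change by the root of its F statistic. Log2 CPM used a prior count of 2. Exonic length is the union of annotated exons. Single values were compared with two-sided exact permutation tests over all relabellings (numpy 2.4.6). Spearman's rho was computed with scipy 1.17.1. The samples are different mice, siblings from crosses of heterozygotes, and no source says which of them share a litter. The paper states that preparation and sequencing of the RNAs were randomized. Counting error was exceeded in all 30 within-label pairs of libraries (chi-square per degree of freedom 9.12 to 40.6).

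The genes, lists and markers were chosen with earlier results of these data known. Named are the 6 genes, the targeted gene and its antisense neighbour, listed genes past 1% FDR, the 3 of each list with the lowest p, the 3 chaperones and the 3 glucocorticoid-responsive genes with the most reads, *Sgk1*, *Tsc22d3*, *Per1* and *Hsd11b1*, and the 3 genes whose deviations correlate best with each tested gene of the 6. Alternatives were DESeq2 1.42.0 (not the DESeq 1.16.0 used by the authors), RLE size factors, no filter and at least 10 reads in every library. Further alternatives were the replicate number as a block, 5% FDR and each library left out. An offset for exonic length (spline with 5 degrees of freedom, 16365 genes with a length) was used with and without the block. Leaving out *Gadd45a*-KO replicates 2 and 3 together was added after seeing the data. The procedures were tested on simulated data. Of the listed genes 1 was not matched, and of the markers *Pou3f1* (CA1) and *Cux2* (cortex) were not. These genes and reads along transcripts were not analysed here. Protein sequences were not used here.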

Additional observations from a re-analysis of the deposited data

Results flagged for a closer look

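In 102 sets of 6 libraries, 1 for each named gene and label, the gap of the highest or lowest library to its neighbour was compared with the whole range of the set by Dixon's criterion at its 95% critical value. Chance alone flags about 1 in 20 sets, 5.1 here, and 5 were flagged. In *Esr1* the library *Gadd45a*-KO replicate 4 had 2.96 CPM, above 1.89 to 2.26 CPM in the other 5 (gap to range 0.654). In *Esr2* the library *Gadd45a*-KO replicate 1 had 0.0196 CPM, which is 1 read, below 0.065 to 0.0879 CPM (0.664). *Col4a1*, a basement membrane collagen gene, was also high in *Gadd45a*-KO replicate 4, with 136 CPM against 98.8 to 105 CPM (0.843). It was named as 1 of the 3 genes most like *Esr1* over these same libraries, so its flag is not independent of that of *Esr1*. In *Nsd1* the library *Gadd45a*-KO replicate 5 had 201 CPM against 175 to 181 CPM (0.758). For *E230016M11Rik* the library *Gadd45a*-WT replicate 6 had 3.87 CPM against 3.27 to 3.47 CPM (0.668).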

How the results depend on the processing

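The direction of all 5 tested genes of the 6 stayed the same under every alternative, and so did the side of 1% FDR for *Nr3c2*, *Esr1*, *Fkbp5* and *Nr3c1*. At 5% FDR *Nr3c1* passed at -0.21. *Pgr* lost its call without *Gadd45a*-KO replicates 2 and 3 (-0.44) and in 3 of 12 omissions of 1 library, over which its log2 fold change ran from -0.49 to -0.42. Replicate numbers were not taken to pair the samples, since no source ties them to a shared litter, batch or day and 1 of 6 same-numbered pairs had a correlation of deviations under 0.1. The correlations ran from -0.0761 to 0.262 (mean 0.14, against -0.0279 for different numbers), which leaves a shared component by number possible, and 1 of 6 libraries labelled *Gadd45a*-WT and 3 of 6 labelled *Gadd45a*-KO correlated best with their own number. With the replicate block, 509 genes were lower and 5 higher at 1% FDR, *Pgr* had -0.46, and 2 coregulators were lower.

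Over all tested genes, 430 lower genes became 661 with DESeq2, 275 with the length offset, 199 without *Gadd45a*-KO replicates 2 and 3, 726 at 5% FDR and 239 to 467 with 1 library left out. The count moved by over 1.5 times without *Gadd45a*-WT replicates 3 (268), 5 (239) and 6 (261) or *Gadd45a*-KO replicates 1 (248), 2 (276) and 6 (248). The 4 higher genes became 19 with DESeq2, 9 with the length offset, 10 with the length offset and replicate block, 20 at 5% FDR and 3 to 4 with 1 library left out. The 1 lower coregulator became 4 with DESeq2, 0 with the length offset, with or without the replicate block, 0 without *Gadd45a*-KO replicates 2 and 3, 4 at 5% FDR and 1 to 2 with 1 library left out. Among other nuclear receptors, 1 was lower with DESeq2 and at 5% FDR (0 to 1 with 1 library left out), and 1 was higher with RLE size factors, DESeq2, no filter, the length offset with and without the replicate block, and 5% FDR (0 to 1 with 1 library left out). The cause of these moves was not tested.

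Fold changes near 0 of uncalled genes changed sign. With the length offset these were *Fam107a* (-0.0026, and -0.01 with the replicate block), *Slc35a1* (-0.01 in both), *Dscaml1* (0.01 in both) and *Zfp758* (-0.01 in both). Without *Gadd45a*-KO replicates 2 and 3 they were *Tsc22d3* (-0.03), *Dscaml1* (0.03) and *Zfp758* (-0.0033). With 1 library left out the ranges were -0.01 to 0.04 for *Fam107a*, -0.13 to 0.00083 for *Sgk1*, -0.03 to 0.1 for *Tsc22d3*, -0.0037 to 0.08 for *Hsd11b1*, -0.01 to 0.03 for *Slc35a1*, -0.06 to 0.01 for *Dscaml1*, -0.02 to 0.42 for *Neurog2* and -0.01 to 0.04 for *Zfp758*. Depth limits *Esr2*, with 1 to 7 reads per library.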

Other observations

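The genes whose levels followed each receptor most closely were sought among all tested genes, as the correlation of log2 CPM deviations from the label mean over 12 libraries. They are given as descriptions, since the best of 16399 correlations are high by selection and the libraries share depth and dissection. *Nr3c2* was followed by *Dscaml1*, a neuronal adhesion gene (r = 0.95), the serotonin receptor *Htr2a* (0.892) and the synaptic vesicle priming gene *Unc13a* (0.889). The corresponding genes were *Slc35a1* (0.908), *Lpp* (0.903) and *Zfp41* (0.897) for *Nr3c1*, and *Tstd2* (0.908), *1700012B15Rik* (0.889) and *Gm2897* (0.878) for *Pgr*. The values of r for *Nr3c1* rest mainly on the libraries labelled *Gadd45a*-WT, where its SD was 9.91 CPM against 1.12 CPM under *Gadd45a*-KO. *Esr1* was followed by *Neurog2* (0.912), a transcription factor of neuronal precursors, *Col4a1* (0.908) and *Osbpl6* (0.892). *Fkbp5* was followed by *Zfp758* (0.911), the glutathione reductase *Gsr* (0.889) and the mitochondrial carrier *Slc25a44* (0.858). Of these 15 genes *Htr2a* had the lowest adjusted p between the labels, at -0.45 on the log2 scale (0.015, edgeR), and none passed 1% FDR.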
